A study of Homo sapiens with 27 samples.

Results

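UDP-glucuronosyltransferases (UGTs) were followed through 9 polycyclic aromatic hydrocarbons in HepG2 cells, a line from a human hepatocellular carcinoma that keeps many functions of hepatocytes. The family was taken as 8 genes (UGT1A1, UGT1A6, UGT2A3, UGT2B4, UGT2B7, UGT2B10, UGT2B11 and UGT2B15), and a probe belonged to it if its gene name was one of these or an older alias. Of these 8 genes, 7 had at least 1 probe, 10 probes in all, among 41000 probes of the array and 17288 named genes tested. Cells were exposed for 48 h to benzo[k]fluoranthene (BF), phenanthrene (PH), indeno[1,2,3-c,d]pyrene (IND), 3-methylcholanthrene (3MC), chrysene (CHR), naphthalene (NP), benzo[a]pyrene (BaP), dibenzo[a,h]anthracene (DBA) or benzo[a]anthracene (BA). Every array set the RNA of exposed cells, in Cy5, against that of solvent-treated cells (DMSO), in Cy3, with 3 arrays per compound and 27 in all. The dyes were never exchanged, doses are not given, and the compounds are compared as they were applied. The labels do not say whether the 3 arrays of a compound came from separate cultures, so p-values measure the spread between arrays. A test of the ratio against 0 leaves out the spread of the DMSO cells themselves. IND was run on an array platform of its own and is tested against DMSO only, while the other 8 compounds shared a platform.

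UGTs join glucuronic acid, taken from UDP-glucuronic acid, to small fat-soluble molecules, which makes them soluble in water and ready for export into bile or urine. In liver they conjugate bilirubin, steroids, bile acids, many drugs, and the phenols and diols into which cytochromes P450 turn polycyclic hydrocarbons. The UGT1A enzymes come from a single locus in which alternative first exons are joined to the same set of later exons, and the aryl hydrocarbon receptor (AHR), which binds many planar hydrocarbons, is a known activator of UGT1A1 and UGT1A6. The UGT2 enzymes are encoded by separate, closely related genes in a cluster, several of which depend on liver transcription factors.

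UGT1A6 (chr2:233691702-233773300 in RefSeq's GRCh38.p14 annotation) and UGT1A1 (chr2:233760270-233773300) share the end of that locus. The 2 probes named UGT1A6 both list transcripts of UGT1A1, UGT1A4, UGT1A6 and UGT1A8, so their signal cannot be divided among these genes, and UGT1A1 had no probe of its own. The UGT2 members lie on chromosome 4, from UGT2B15 (chr4:68646597-68670652) through UGT2B10 (chr4:68815994-68832023), UGT2A3 (chr4:68928463-68951804), UGT2B7 (chr4:69051375-69112987) and UGT2B11 (chr4:69199951-69224984) to UGT2B4 (chr4:69480165-69526014). The probes of UGT2A3, UGT2B4 and UGT2B7 each list a single gene. The brighter UGT2B10 probe also lists UGT2B11, the UGT2B11 probe also lists UGT2B28, and the UGT2B15 probe also lists UGT2B17. Probe sequences were not used here.

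RefSeq promoter windows of 250 bases before a transcript start, on GRCh38.p14, were found for 7 of the 8 members, and UGT2B4 had no entry in the table. The core of the site that AHR binds with its partner ARNT, GCGTG on either strand, occurs once before the first of 2 listed UGT1A6 starts, with 195 bases between it and the start. It does not occur in the windows of the second UGT1A6 start, of UGT1A1 or of the 5 UGT2 members. Of 34943 human promoter windows of this length, 32.2% hold GCGTG, so its presence alone does not set UGT1A6 apart. The UGT1A6 window on chr2:233691452-233691701, plus strand, is printed with GCGTG in capitals because UGT1A6 had the highest ratios of the family.
UGT1A6: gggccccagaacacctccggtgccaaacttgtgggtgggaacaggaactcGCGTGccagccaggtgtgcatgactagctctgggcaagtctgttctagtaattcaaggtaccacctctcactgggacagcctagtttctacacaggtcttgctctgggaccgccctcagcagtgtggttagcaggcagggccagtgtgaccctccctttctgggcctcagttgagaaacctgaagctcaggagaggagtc

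The 5 UGT2 windows share a longest run of 9 bases, TTTTAACTT, which lies between 36 and 47 bases before the start in each of them. It was found by comparing these windows, so its presence there is no test, and 0.478% of the human windows hold it on either strand. The last 100 bases before each start are printed 5′ to 3′ with that run in capitals, to show where the members are alike and where they differ. Their positions are chr4:68815894-68815993 (UGT2B10, plus strand), chr4:69214749-69214848 (UGT2B11, minus strand), chr4:68670653-68670752 (UGT2B15, minus strand), chr4:69096374-69096473 (UGT2B7, plus strand) and chr4:68951805-68951904 (UGT2A3, minus strand).
UGT2B10: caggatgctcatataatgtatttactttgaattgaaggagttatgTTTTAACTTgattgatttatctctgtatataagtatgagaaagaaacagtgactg
UGT2B11: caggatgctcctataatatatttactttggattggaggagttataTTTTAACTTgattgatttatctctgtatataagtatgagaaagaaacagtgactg
UGT2B15: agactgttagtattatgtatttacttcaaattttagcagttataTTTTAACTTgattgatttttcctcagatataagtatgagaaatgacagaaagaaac
UGT2B7: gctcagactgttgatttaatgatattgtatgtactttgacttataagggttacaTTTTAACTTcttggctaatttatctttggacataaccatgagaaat
UGT2A3: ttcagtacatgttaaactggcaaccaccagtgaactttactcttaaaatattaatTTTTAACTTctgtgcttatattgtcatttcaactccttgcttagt
Over the whole 250-base windows, UGT2B10 and UGT2B11 were identical at 229 of 246 aligned bases (93.1%). UGT2B10 and UGT2B15 were identical at 79.7% of aligned bases, and UGT2B10 and UGT2B7 at 72%. UGT2A3 could be aligned with the others over only 22 to 38 bases.

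The median Cy5 signal per array ran from 70 to 164 intensity units with DBA, 3MC and NP, whose scanner output had a layout of its own, and from 341 to 1535 units with the other 6 compounds. Layout and compound cannot be told apart where compounds of both layouts are compared. Across all probes, the log2 ratios of arrays of a compound correlated at 0.87 to 0.983, except for BA. BA array 1 correlated at 0.181 and 0.128 with BA arrays 2 and 3, which correlated at 0.796 with each other. Results for UGT genes and gene lists with BA are therefore given with and without array 1 where it changes them. Hepatocyte markers fitted the label of the cells: all 8, among them albumin, transthyretin and apolipoprotein B, stood above background in the DMSO channel of 27 of 27 arrays. Markers of other cells passed the same rule, which 67.8% to 96.3% of all probe spots passed in the DMSO channel of an array. Passing it therefore does not show that other cells were present. Mean log2 intensity on the shared platform was 12.16 to 15 for the hepatocyte markers and 6.50 to 10.69 for the others. Of the leukocyte markers, CD68 was above background in the DMSO channel of 26 of 27 arrays, CD14 of 21 of 27 and PTPRC of 19 of 24. Of the endothelial markers, VWF was above background on 26 of 27 arrays, PECAM1 on 18 of 24 and CDH5 on 12 of 24. Of the fibroblast markers, PDGFRB was above background on 27 of 27 arrays, COL3A1 on 22 of 27, COL1A1 on 19 of 27 and DCN on 17 of 24.

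With BF and IND, UGT1A6 was higher and 5 UGT2 members (UGT2A3, UGT2B4, UGT2B7, UGT2B10 and UGT2B11) were lower than in DMSO, of 7 members tested with BF and 6 with IND. A gene is called higher or lower here if limma's adjusted p was under 0.05 and its mean ratio at least 1.5-fold, a log2 ratio of 0.585 in either direction, on its brightest probe. By that rule 16.1% of named genes were higher and 20.4% lower with BF, and 10.5% were higher and 13.2% lower with IND. With PH the same 5 UGT2 members were lower and none was higher, against 7.85% of genes lower and 10.6% higher. With BA, UGT1A6 was higher and UGT2B4, UGT2B10 and UGT2B11 were lower, against 2.04% of genes higher and 3.1% lower. Without BA array 1, UGT2B7 was lower too and these shares were 4.56% and 5.98%.

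BaP gave 1 member higher (UGT1A6) and 2 lower (UGT2A3 and UGT2B10), where 15% of genes were higher and 10% lower. CHR was the compound with 2 members higher (UGT1A6 and UGT2B7) and none lower, against 11.8% and 12.3% of genes. With NP 2 members were lower (UGT2A3 and UGT2B4) and none was higher, with 12.5% of genes lower and 6.74% higher. UGT2A3 was the single member called with DBA and with 3MC, lower in both. With DBA 7.24% of genes were lower and 3.07% higher, and with 3MC 7.46% were lower and 3.67% higher. The median log2 ratio of the members was -1.60 with IND, -1.52 with BF, -0.71 with PH, -0.40 with BaP, -0.34 with BA, -0.31 with NP, 0.12 with DBA, 0.16 with CHR and 0.21 with 3MC. The median over all named genes lay between -0.01 and 0.04 with each compound.

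**Figure D1:**
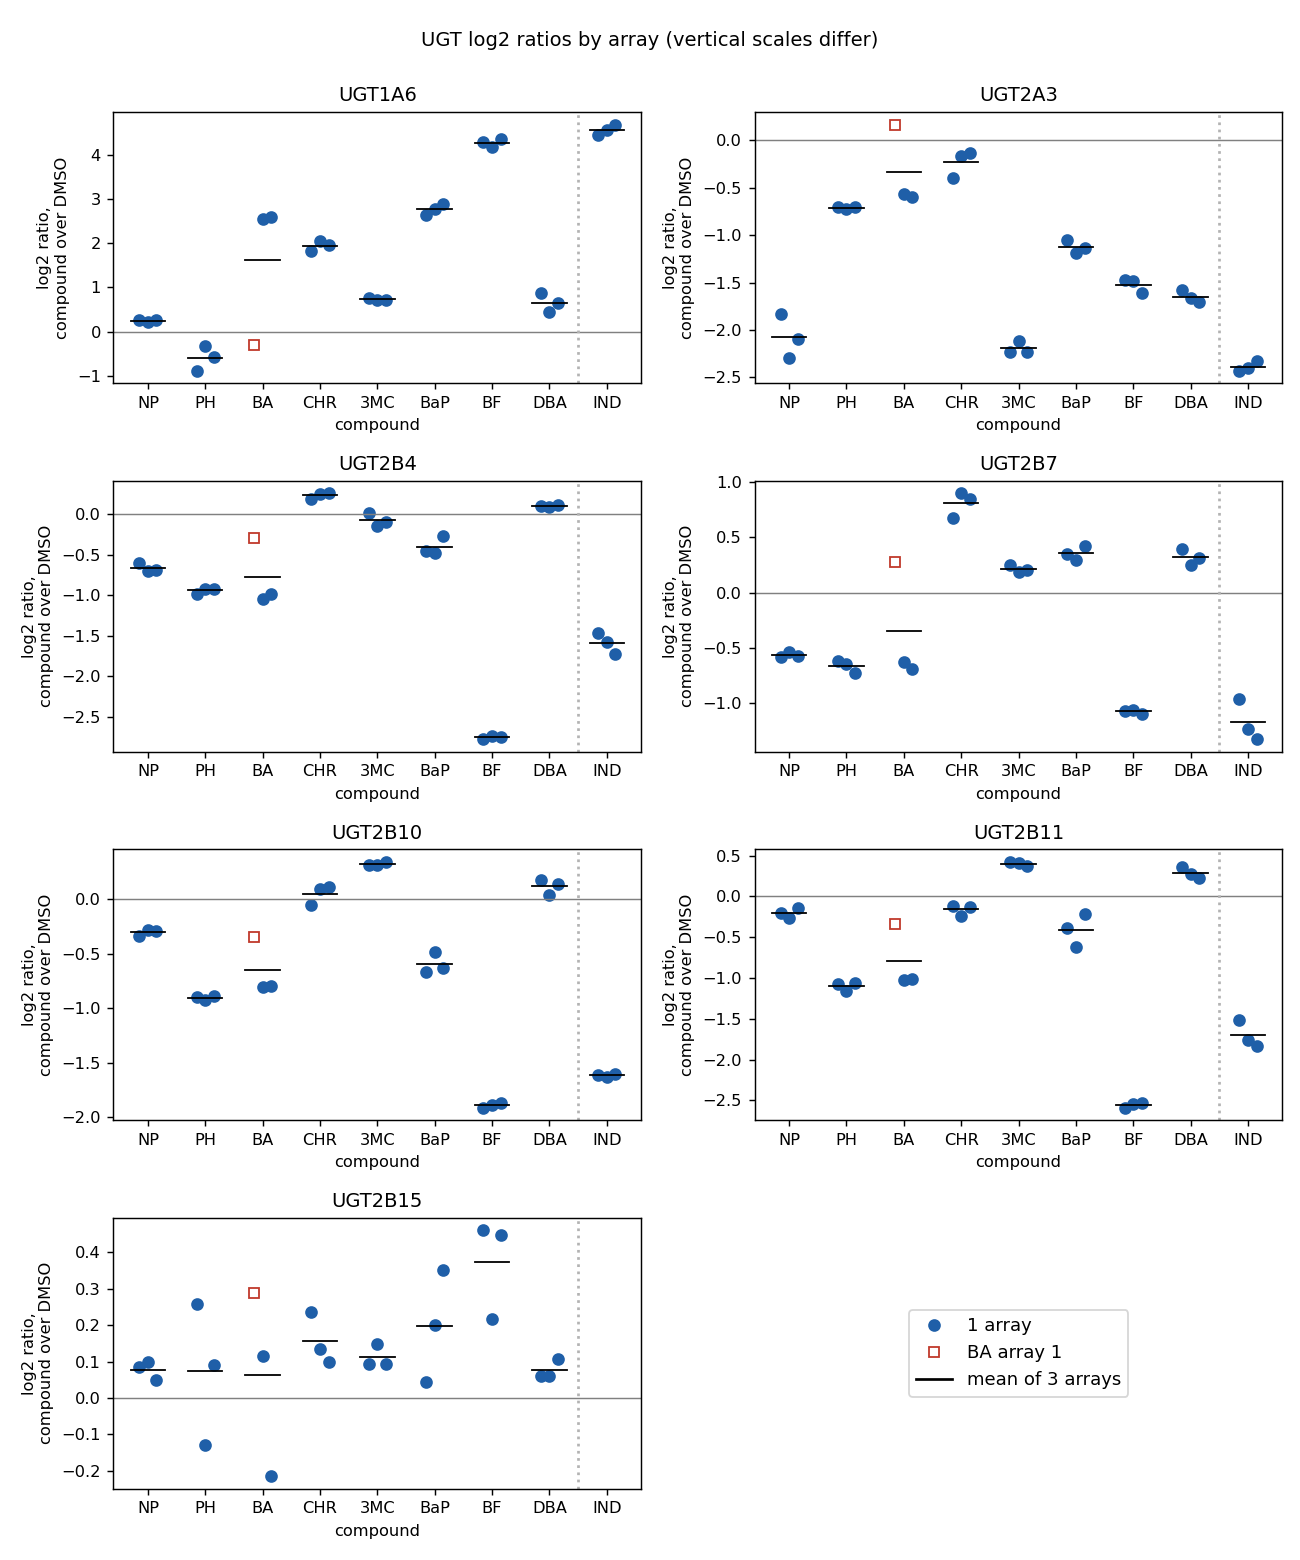
Log2 ratio of compound over DMSO (vertical axes, with a scale of their own per gene) of the 7 members with a probe, on the probe brightest on the shared platform. Each dot is 1 array, the bar is the mean of 3, the red square is BA array 1, and the dotted line sets off IND, which had another platform. UGT1A6 reaches 4.27 with BF and 4.57 with IND, UGT2B4 falls to -2.75 with BF, and UGT2B15 stays between -0.22 and 0.46 on every array.

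UGT1A6 encodes an enzyme for planar phenols, and its probes also read UGT1A1, which conjugates bilirubin. Its log2 ratios were 4.29, 4.17 and 4.35 with BF on the brighter probe, where no DMSO channel stood well above background. The ratio of that probe was thus at least 19.3-fold, against the dim channel's own signal (adjusted p = 3.5e-11). The second probe, with DMSO above background on 2 of 3 BF arrays, gave 9.17-fold, so 19.3-fold is no bound on the level of the gene. With IND the UGT1A6 ratios were 4.23, 4.39 and 4.56 on the probe brightest on that platform, a mean of 4.39 ± 0.16 (SD, n = 3) or 21.0-fold (adjusted p = 8.16e-08). The other UGT1A6 probe averaged 4.57 with IND. The ratios were 2.64, 2.78 and 2.90 with BaP, a mean of 2.77 ± 0.13 (SD, n = 3) or 6.83-fold (adjusted p = 6.78e-08). With CHR they were 1.82, 2.04 and 1.95, a mean of 1.94 ± 0.11 (SD, n = 3) or 3.83-fold (adjusted p = 1.1e-05), with DMSO above background on 1 of the 3 arrays and the compound channel on 2. With these 4 compounds the ratios lay well above 0 on every array, and the arrays of a compound lay close together.

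BA array 1 gave UGT1A6 a log2 ratio of -0.29, whereas BA arrays 2 and 3 gave 2.55 and 2.60. The mean of 1.62 ± 1.66 (SD, n = 3) passed (adjusted p = 0.000268), and without array 1 it was 2.57 (adjusted p = 4.07e-14). DBA gave 0.87, 0.45 and 0.65, and 3MC gave 0.77, 0.72 and 0.72, all above 0. These means, 0.65 and 0.74, did not pass in the fit of 24 arrays (adjusted p = 0.134 and 0.0627), which shares 1 estimate of the spread with BA array 1 in it. Without BA array 1 both passed as higher (adjusted p = 6.53e-07 for DBA and 1.02e-07 for 3MC), where 3.09% and 3.68% of genes were higher. PH gave -0.89, -0.33 and -0.56, a mean of -0.59 that missed the threshold with all arrays (adjusted p = 0.104) and passed as lower without BA array 1 (adjusted p = 1.44e-06), where 7.86% of genes were lower. NP gave 0.27, 0.21 and 0.25, below the fold threshold either way.

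The second UGT1A6 probe on the shared platform gave means of 3.20 with BF, 2.76 with BaP, 1.74 with BA (2.54 without array 1) and 1.73 with CHR, each called higher. It gave 0.58 with DBA, 0.55 with 3MC, -0.02 with NP and -0.57 with PH. Its spots were marked not found on every DBA and NP array, at 44 to 51 and 19 to 28 units in Cy5, so the DBA and NP values are near the floor. Both probes thus had BF and BaP at the top and PH at the bottom, and they lay furthest apart with BF. Of the 28 pairs of compounds, UGT1A6 differed in 20 (24 without BA array 1), where 24.5% of all gene and pair combinations were called. In descending order of the mean, BF was above BaP on the brighter probe (adjusted p = 0.00632 for the difference), and BaP was not shown to differ from CHR (difference 0.84, 95% interval -0.07 to 1.74, adjusted p = 0.119) on that probe until BA array 1 was left out (adjusted p = 1.84e-06). On the second probe BaP was higher than CHR with all arrays (1.03, adjusted p = 0.0204). CHR and BA were not shown to differ with all arrays (0.32, 95% interval -0.59 to 1.22), and without BA array 1 CHR was lower than BA by a log2 difference of -0.64 (adjusted p = 0.000181). DBA and 3MC, which share a layout, were not shown to differ (-0.08, 95% interval -0.99 to 0.83).

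CYP1A1, a cytochrome P450 that is the standard readout of AHR activation, was called higher with every compound but NP. Its Cy5 spot held saturated pixels on 13 of 27 arrays (9% to 90% of pixels), so its ratios on those arrays, all of BF, IND and CHR, 2 of BaP and 2 of BA, are lower bounds. BA array 1 gave CYP1A1 a log2 ratio of 0.58, against 6.25 and 6.23 on BA arrays 2 and 3, the same split as for UGT1A6. PH gave CYP1A1 2.82, 2.32 and 2.76 beside UGT1A6 ratios below 0 on all 3 arrays. DBA and 3MC raised CYP1A1 to means of 3.45 and 2.90, beside 0.65 and 0.74 for UGT1A6. The UGT1A6 spots were dim there, at 144 to 222 units in Cy5 and 58 to 134 in Cy3 with DBA. With 3MC they read 289 to 411 and 195 to 310 units. The offset of 50 units added to both dyes in processing draws the ratios of dim spots towards 0. Its part in the gap between UGT1A6 and CYP1A1 was not tested. NP gave 0.47 for CYP1A1 (adjusted p = 0.568) and 0.25 for UGT1A6.

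**Figure D2:**
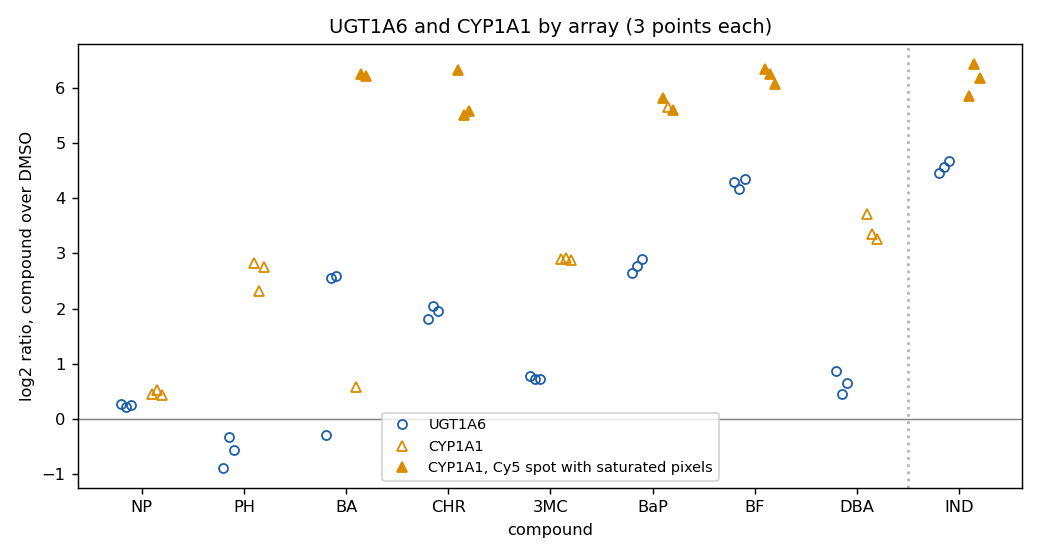
Log2 ratio of compound over DMSO of UGT1A6 (circles) and CYP1A1 (triangles) on each of 3 arrays per compound. Filled triangles mark arrays whose CYP1A1 spot held saturated pixels and gives a lower bound. With PH the CYP1A1 points lie at 2.32 to 2.82 while the UGT1A6 points lie below 0, and BA array 1 lies at -0.29 for UGT1A6 and 0.58 for CYP1A1.

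Among 7 AHR targets (CYP1A1, CYP1A2, CYP1B1, AHRR, TIPARP, NQO1 and ALDH3A1), 7 were higher with CHR and with IND, 6 with BF and with BaP, 5 with DBA and with BA, 1 with 3MC and with PH, and none with NP, where 1 was lower. Of all named genes, 11.8% were higher with CHR, 10.5% with IND, 16.1% with BF, 15% with BaP and 3.07% with DBA. The shares higher were 2.04% with BA, 3.67% with 3MC and 10.6% with PH, and 12.5% were lower with NP. CYP1B1, another hydrocarbon-oxidising P450, averaged 6.40 with BF, 4.41 with IND, 2.54 with BaP and 1.58 with CHR. AHRR, the repressor that AHR induces against itself, averaged 4.11 with BF, 2.67 with IND, 1.96 with CHR and 1.75 with BaP. ALDH3A1, an aldehyde dehydrogenase, averaged 3.34 with CHR, 3.23 with IND, 3.11 with BF and 1.63 with BaP.

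UGT2A3, an enzyme of liver and gut that acts on bile acids, was lower with 7 of the 9 compounds, more than any other member. Its log2 ratios were -2.43, -2.40 and -2.33 with IND, a mean of -2.39 ± 0.05 (SD, n = 3; adjusted p = 1.07e-07). They were -2.23, -2.11 and -2.23 with 3MC, a mean of -2.19 ± 0.07 (SD, n = 3; adjusted p = 1.33e-13). NP gave -1.83, -2.30 and -2.10, a mean of -2.07 ± 0.24 (SD, n = 3; adjusted p = 1.73e-13). UGT2A3 was thus far below DMSO with NP, the smallest of the compounds, with which neither UGT1A6 nor CYP1A1 passed. 3MC and NP were not shown to differ for UGT2A3 (-0.12, 95% interval -0.42 to 0.18). The compound channel of UGT2A3 read only 39 to 49 units on the NP arrays, against 189 to 332 on the 3MC arrays. The offset of 50 units draws the ratios of such dim spots towards 0, so this comparison cannot show that both compounds acted alike.

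The other called means of UGT2A3 were -1.65 ± 0.07 with DBA, -1.52 ± 0.08 with BF, -1.13 ± 0.07 with BaP and -0.71 ± 0.02 with PH (SD, n = 3 each). CHR gave -0.40, -0.17 and -0.13, a mean of -0.23 (adjusted p = 0.0529). BA gave 0.17, -0.57 and -0.60, where array 1 again lay apart, and the mean of -0.33, or -0.58 without array 1, was under the fold threshold. UGT2A3 differed in 17 of the 28 pairs and in 5 of the 13 pairs within a layout, where 21.8% of gene and pair combinations were called. Its DMSO level was 10.34 ± 0.27 (log2 intensity, SD, n = 3) on the NP arrays and between 11.62 and 12.51 on those of the other compounds. The mean ratio of UGT2A3 correlated with that of UGT1A6 at 0.11 over the 8 compounds of the shared platform, given as a description.

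UGT2B4, a bile acid and catechol oestrogen conjugating enzyme, fell furthest with BF. Its log2 ratios were -2.78, -2.73 and -2.75 with BF, a mean of -2.75 ± 0.02 (SD, n = 3) or 6.74-fold lower (adjusted p = 2.18e-17). IND gave -1.46, -1.57 and -1.73, PH gave -0.98, -0.92 and -0.92, and NP gave -0.61, -0.70 and -0.69, all called lower. BA gave -0.30, -1.04 and -0.99, called lower at a mean of -0.78 with all arrays and -1.02 without array 1. BaP (-0.40), 3MC (-0.08), DBA (0.10) and CHR (0.24) were under the fold threshold.

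The second UGT2B4 probe differed from the brighter one in its calls with 3 compounds. It was lower with BaP, at -1.83, -1.94 and -1.92, and with CHR, at -1.99, -1.73 and -1.81, where the brighter probe averaged -0.40 and 0.24. It gave -0.05 with NP, where the brighter probe was called lower at -0.66. On each NP array the spot of the second probe was marked not found, at 18 to 20 units in Cy5 and 51 to 61 in Cy3. The offset of 50 units draws ratios this dim towards 0, so the NP value cannot show that the probes disagree. With BF (-3.71), IND (-2.88), BA (-1.33) and PH (-0.87) both probes were called lower, although the compound channel of the second probe stood above background on only 1 of 3 BF arrays. Both probes list UGT2B4 alone, and the part of its transcripts that each reads was not examined.

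UGT2B10, which conjugates tertiary amines such as nicotine, gave -1.91, -1.89 and -1.87 with BF, a mean of -1.89 ± 0.02 (SD, n = 3; adjusted p = 7.15e-17). IND gave -1.62, -1.63 and -1.60, and PH gave -0.90, -0.93 and -0.89, all called lower with arrays that hardly differed. BA gave -0.35, -0.80 and -0.80, called lower at a mean of -0.65, and BaP gave -0.66, -0.48 and -0.63, called lower at -0.59, just past the fold threshold. The BaP call was lost without BaP array 1 (-0.56) or without BaP array 3 (-0.57). The BA call was lost without BA array 2 or 3 (-0.57 each).

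The second UGT2B10 probe, which lists UGT2B10 alone, was lower with BF (-2.14), IND (-1.43), NP (-1.33), PH (-1.25), BA (-0.94) and 3MC (-0.89). The brighter probe, which also lists UGT2B11, gave -0.31 with NP and 0.32 with 3MC. UGT2B11, a close relative of UGT2B10 whose probe also lists UGT2B28, followed the brighter probe: its mean over the 8 shared-platform compounds correlated with that of UGT2B10 at 0.98, and both probes list UGT2B11 transcripts. UGT2B11 gave -2.59, -2.54 and -2.53 with BF, a mean of -2.55 ± 0.03 (SD, n = 3; adjusted p = 1.47e-16). IND gave -1.51, -1.76 and -1.84, PH gave -1.07, -1.16 and -1.06, and BA gave -0.34, -1.03 and -1.02, all called lower. With DBA and 3MC it gave 0.29 and 0.40, under the fold threshold.

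The compound channel and the DMSO channel both differed between arrays of different compounds. After scaling of the mean intensity between arrays, the UGT2B4 level in BF-exposed cells was 10.25 ± 0.07, against 13.01 ± 0.06 in DMSO on the same arrays (log2 intensity, SD, n = 3). With BaP it was 11.11 ± 0.06, against 11.51 ± 0.06 in DMSO, and with PH 10.59 ± 0.08, against 11.53 ± 0.08 in DMSO. The UGT2B4 level of BF-exposed cells was thus near that of PH-exposed cells, while the DMSO level on the BF arrays was the highest of the 8 compounds of that platform. UGT2B10 and UGT2B11 had DMSO levels of 14.34 and 13.97 on the BF arrays, against 13.09 and 12.64 on the BaP arrays. The part of the differing DMSO levels in the differences between compounds was not tested. In RNA from whole cultures, fewer cells of a kind and less RNA per cell cannot be told apart.

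**Figure D3:**
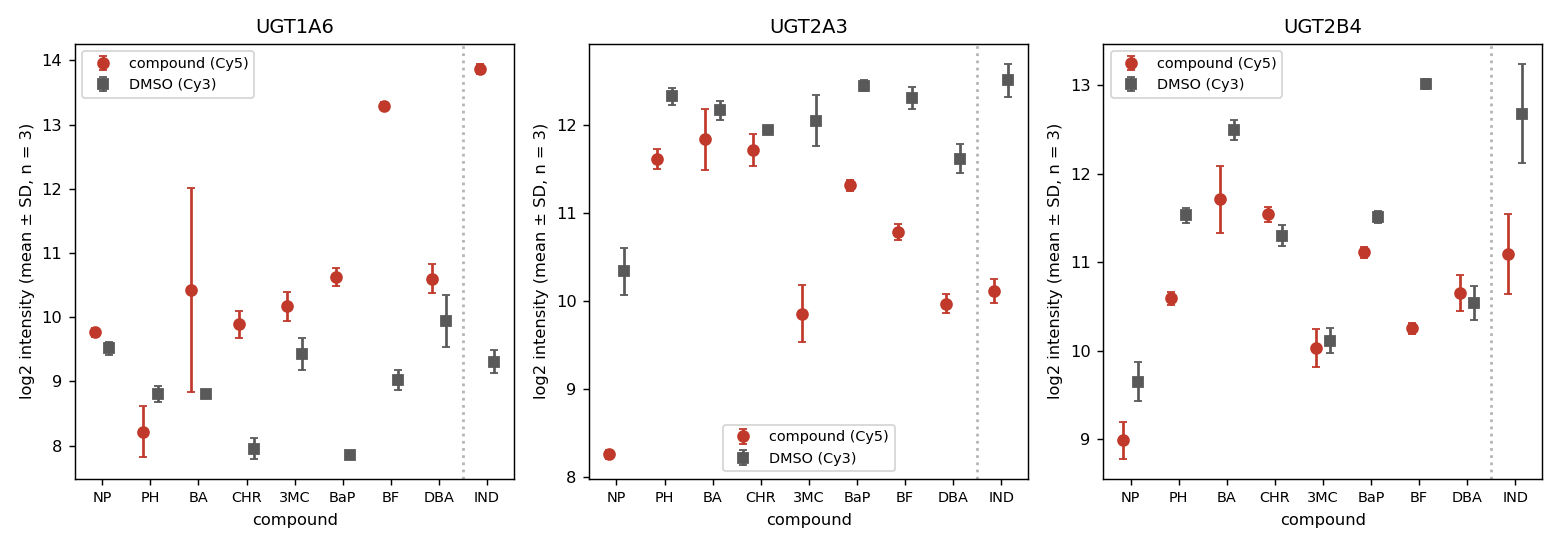
Log2 intensity of UGT1A6, UGT2A3 and UGT2B4 in cells given a compound (red circles, left of each pair) and in DMSO cells on the same arrays (grey squares), as mean ± SD of 3 arrays, after loess and scaling of the mean intensity between arrays of a platform. The dotted line sets off IND. For UGT2B4 the DMSO level runs up to 13.01 with BF and down to 9.65 with NP, and for UGT1A6 the BF and IND levels of 13.29 and 13.87 stand above the other compounds.

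UGT2B7, the main enzyme for morphine and many drugs, was the single UGT2 member called higher with any compound. CHR gave 0.68, 0.90 and 0.84, a mean of 0.81 ± 0.12 (SD, n = 3) or 1.75-fold (adjusted p = 8.5e-07). BF gave -1.07, -1.06 and -1.10 (adjusted p = 6.59e-09), IND gave -0.96, -1.23 and -1.33 (adjusted p = 7.61e-06) and PH gave -0.61, -0.64 and -0.72 (adjusted p = 1.51e-05), all called lower. NP gave -0.58, -0.53 and -0.57, a mean of -0.56 that was under the fold threshold. BA gave 0.28, -0.62 and -0.69, a mean of -0.34 under the fold threshold, and -0.65 without array 1, which was called lower (adjusted p = 1.35e-09). BaP, DBA and 3MC gave 0.36, 0.32 and 0.21, under the fold threshold. With the intensity-dependent part of the normalisation left out, BaP (0.59) and DBA (0.71) were called higher for UGT2B7, and BF (-0.40) was under the fold threshold.

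UGT2B15, which conjugates androgens, had a dim probe, with a level of 7.05 ± 0.05 (log2 intensity, SD, n = 3) in DMSO on the BF arrays. Its mean log2 ratios ran from 0.06 with BA to 0.37 with BF, and none passed with the 8 compounds in which it was tested. In the 3 IND arrays it was not well above background in either channel and was not tested. On its dim probe, UGT2B15 was the single member for which no pair of compounds differed (0 of 28 pairs). Limma's F test over compounds gave that probe an adjusted p of 0.139. Beside the count of pairs, 2 of its 8 comparisons with DMSO had an adjusted p under 0.05, with means under the fold threshold (0.20 with BaP and 0.37 with BF). Its spots were marked not found on every DBA array, at 13 to 19 units in Cy5, where the offset of 50 units draws ratios towards 0. The brighter probe named UGT2B17 also lists UGT2B15 and was lower with BF, IND, PH and NP (limma's F test over compounds, adjusted p = 3.91e-07). The dim probe thus cannot show that UGT2B15 stayed unchanged.

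BaP and BF are isomers of the same formula that differ in how 5 rings are fused, and 5 of the 7 members differed between them, where 35.3% of genes did. UGT1A6 was lower with BaP than with BF on the brighter probe, by a log2 difference of -1.50 or lower, since the BF ratio of that probe is a lower bound, and was not shown to differ on the other (-0.44, 95% interval -1.19 to 0.31, adjusted p = 0.336). UGT2B4, UGT2B11, UGT2B7 and UGT2B10 were higher with BaP than with BF, by 2.35 (95% interval 2.10 to 2.61), 2.15 (1.88 to 2.41), 1.43 (1.12 to 1.74) and 1.30 (1.11 to 1.48). UGT2A3 differed by 0.40 (0.10 to 0.69), under the fold threshold, and UGT2B15 was not shown to differ (-0.18, 95% interval -0.40 to 0.05).

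CHR and BA are isomers too, with 4 fused rings each, and 4 of the 7 members differed between them, where 18.6% of genes did. UGT2B7, UGT2B4, UGT2B10 and UGT2B11 were higher with CHR than with BA, by 1.15 (95% interval 0.84 to 1.46), 1.01 (0.76 to 1.26), 0.70 (0.51 to 0.88) and 0.63 (0.37 to 0.90). Without BA array 1 these differences were 1.46, 1.25, 0.85 and 0.86. UGT1A6 was not shown to differ with all arrays (0.32). Without BA array 1 it was lower with CHR than with BA, by -0.64 on the brighter probe (adjusted p = 0.000181) and -0.81 on the other (adjusted p = 1.1e-08). The share of genes that differed in that fit is not given. UGT2A3 (0.10, 95% interval -0.20 to 0.40) and UGT2B15 (0.09, -0.13 to 0.32) were not shown to differ. Over all 28 pairs of compounds, UGT2B11 differed in 19, UGT2B10 in 18, and UGT2B4 and UGT2B7 in 17 each, where 24.5% of gene and pair combinations were called. Within a layout, UGT2B4 and UGT2B7 differed in 9 of 13 pairs each, and UGT2B10, UGT2B11 and UGT1A6 in 8 each. There, 21.8% of gene and pair combinations were called. P-values of pairs were adjusted over all probes and pairs together.

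Of 14 further UGT genes, 7 had a probe. With BF 1 of these was higher and 4 were lower, by the rule that called 16.1% of genes higher and 20.4% lower. UGT1A8, a gut enzyme whose probe also lists UGT1A7, UGT1A9 and UGT1A10, was higher with IND (2.27, 1.44 and 1.61) and with BF (0.66, 0.79 and 1.05), where the DMSO channel was not above background on the BF arrays and the level was at least 1.78-fold higher. UGT2B17, the main androgen conjugating enzyme beside UGT2B15, was lower with BF (-1.55), IND (-1.37), PH (-0.73) and NP (-0.60) on its brighter probe. That probe also lists UGT2B15. The dimmer UGT2B17 probe, which lists UGT2B17 alone, gave 0.36 with BF, -0.06 with IND, -0.05 with PH and -0.29 with NP, none called. A fall of UGT2B17 itself is thus not shown. Without BA array 1, the brighter UGT2B17 probe was lower with BA too (-0.91, adjusted p = 1.96e-09) and UGT1A8 higher (0.66, adjusted p = 1.46e-05). With all arrays these probes averaged -0.57 and 0.39 with BA and did not pass. UGT2B28, whose probe also lists UGT2B7 and UGT2B11, was lower with NP (-1.61), BF (-1.55), IND (-1.33), 3MC (-0.98), PH (-0.82) and BA (-0.63). UGT8, which adds galactose to ceramide in myelin, was lower with BF (-1.39) and CHR (-0.64) on its brighter probe. Its dimmer probe gave 0.08 with BF, where neither channel was above background, and -0.30 with CHR, neither called. UGT3A1 was lower with BF (-1.10), on 1 of its 3 probes. UGT2A1 and UGT3A2 were called with none.

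**Figure D4:**
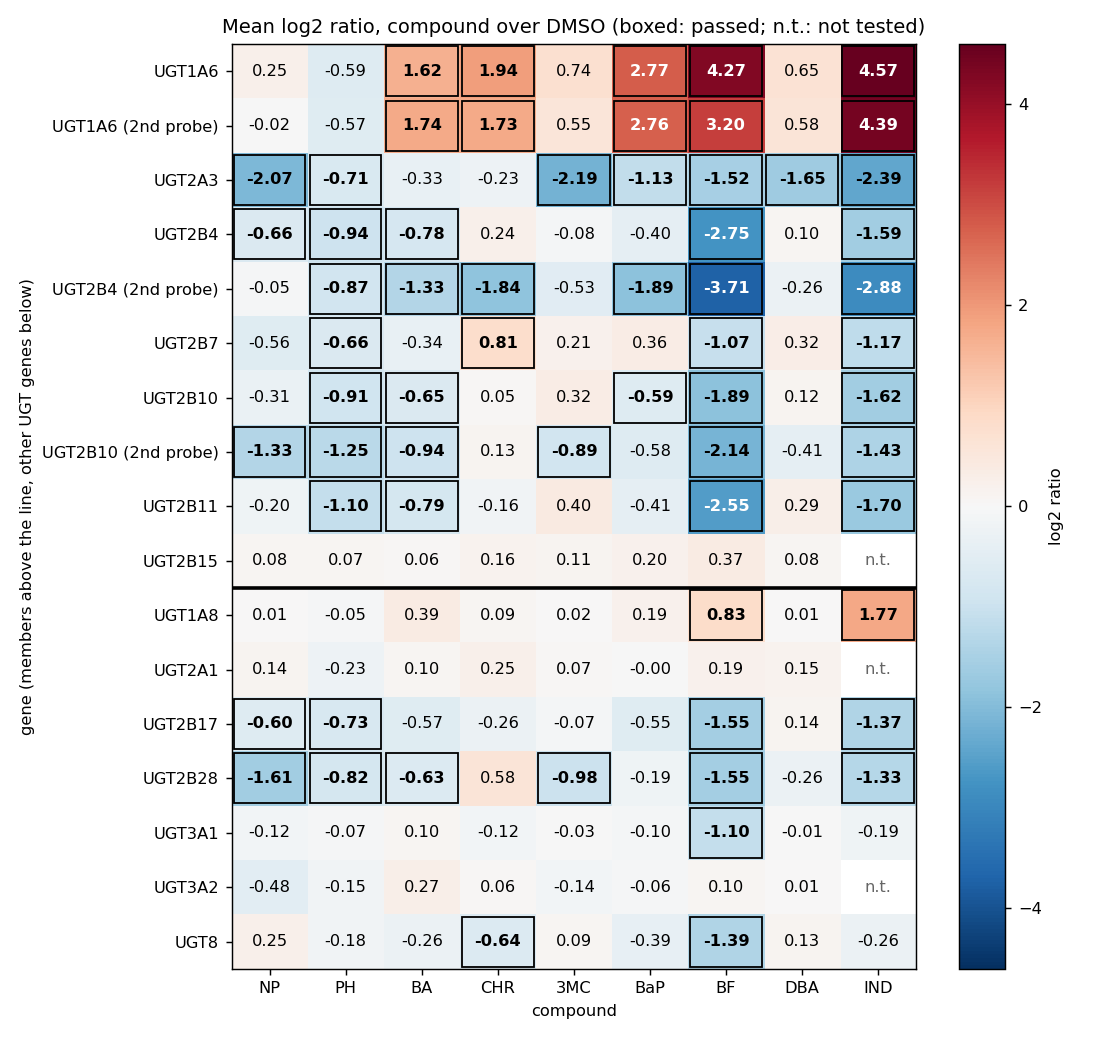
Mean log2 ratio of compound over DMSO (colour and printed value) of the 10 member probes and of the brightest probe of 7 other UGT genes, by compound, with red above 0 and blue below. Boxes mark values that passed (adjusted p under 0.05 and at least 1.5-fold), and n.t. marks probes not tested. The second probes of UGT2B4 and UGT2B10 stand beside the brighter ones, with -1.84 against 0.24 for UGT2B4 with CHR.

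Hepatocyte markers fell beside the UGT2 members in some compounds and not in others. Of 8, all were lower with BF, 7 with IND, 6 with BaP, 4 with NP, 3 with CHR and with DBA, 2 with 3MC and with PH, and 1 with BA (4 without BA array 1). Of all named genes, 20.4% were lower with BF, 13.2% with IND, 10% with BaP, 12.5% with NP and 12.3% with CHR. The shares lower were 7.24% with DBA, 7.46% with 3MC, 7.85% with PH and 3.1% with BA (5.98% without BA array 1). Sums of marker signal are given before any scaling between the dyes, and on the BF arrays the median of all probes was itself 341 to 421 units in Cy5, against 551 to 643 in Cy3. The summed hepatocyte signal was 182000 to 203000 intensity units in BF-exposed cells, against 342000 to 353000 in DMSO, and 323000 to 338000 in PH-exposed cells, against 289000 to 310000 in DMSO. PH thus had 5 UGT2 members lower with 2 of 8 hepatocyte markers lower. Of 3 leukocyte markers, 2 were higher with CHR, PH and BA and 1 with BaP, NP and BF, and with IND 1 of 2 tested was higher. The shares of all named genes higher were 11.8% with CHR, 10.6% with PH and 2.04% with BA. They were 15% with BaP, 6.74% with NP, 16.1% with BF and 10.5% with IND. The summed signal of 3 leukocyte markers (PTPRC, CD68 and CD14) was 8160 to 11200 units in PH-exposed cells, against 3870 to 5490 in DMSO, and 4750 to 5200 units in BF-exposed cells, against 1840 to 2310 in DMSO. That of 4 fibroblast markers was 211 to 484 units in BF-exposed cells, against 701 to 1140 in DMSO. That of 3 endothelial markers was 218 to 284 units in BF-exposed cells, against 371 to 441 in DMSO, and none of the 3 was called with BF (median log2 ratio -0.01). The part of these markers in the UGT ratios was not tested.

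Among 15 transcription factors known to act on UGT genes, 2 were higher and 6 lower with BF, 5 were higher and 1 lower with PH, and 5 were lower with CHR, 4 with DBA, 3 with BaP and with NP, 2 with BA (3 without BA array 1) and with IND, and 1 with 3MC. Of all named genes, 16.1% were higher and 20.4% lower with BF, and 10.6% higher and 7.85% lower with PH. Shares lower were 12.3% with CHR, 7.24% with DBA, 10% with BaP, 12.5% with NP, 3.1% with BA, 13.2% with IND and 7.46% with 3MC. Without BA array 1 the BA share was 5.98%. The counts of factors were not tested against these shares. NR1H4, the bile acid receptor FXR, averaged -3.28 with BF, -2.73 with BaP and -1.98 with CHR. CEBPA averaged -2.46 with BF, -1.85 with CHR and -1.80 with IND, and 0.72 with PH. HNF4A was lower with BF, where no compound channel was well above background, and with CHR (-0.76), and higher with PH (0.66). The part of these factors in the UGT ratios was not tested.

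Of 10 genes that supply UDP-glucuronic acid or carry glucuronides, 4 were higher and 4 lower with BF, 3 higher and 2 lower with CHR and with IND, 3 higher with PH, 2 higher and 3 lower with BaP, 2 higher and 1 lower with NP, 1 higher and 1 lower with DBA, 1 higher with BA (2 without BA array 1) and 1 lower with 3MC. Of all named genes, 16.1% were higher and 20.4% lower with BF, 11.8% and 12.3% with CHR, and 10.5% and 13.2% with IND. The shares were 10.6% and 7.85% with PH, 15% and 10% with BaP, and 6.74% and 12.5% with NP. They were 3.07% and 7.24% with DBA, 2.04% and 3.1% with BA, and 3.67% and 7.46% with 3MC. These counts were not tested against the shares. ABCC2, which pumps glucuronides into bile, averaged 1.53 with PH, 1.24 with IND, 1.17 with BF, 1.11 with CHR and 0.75 with BaP. ABCC3, which exports them into blood, averaged 1.28 with BF, 1.18 with PH, 1.12 with IND and 1.08 with NP. ABCG2, an efflux pump that AHR is known to induce, averaged 2.28 with IND, 2.21 with BF and 1.55 with CHR. ABCC4 averaged -1.75 with BaP and was lower with CHR and BF, where its compound channel was not well above background.

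Of 12 other conjugating enzymes, 4 were higher and 6 lower with BF, 2 higher and 3 lower with CHR and with PH, 1 higher and 2 lower with IND, 4 lower with BaP, 3 with NP, and 2 each with DBA, 3MC and BA. Beside them, 16.1% of all named genes were higher and 20.4% lower with BF, and 11.8% and 12.3% with CHR. The shares were 10.6% and 7.85% with PH, and 10.5% and 13.2% with IND. Shares lower were 10% with BaP, 12.5% with NP, 7.24% with DBA, 7.46% with 3MC and 3.1% with BA. No count of enzymes was tested against these shares. GSTA1, a glutathione transferase of hepatocytes, was lower with all 9 compounds, from -0.75 with PH to -3.67 with BaP. GSTA2 was lower with 8, down to -3.81 with BaP. GSTP1, the glutathione transferase of many other cells, averaged 1.20 with BF. NAT1, an arylamine acetyltransferase, averaged 0.85 with CHR, -0.60 with NP and 1.06 with BF, where DMSO was not well above background.

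The compound means of the members correlated with those of a few other genes, given as a description over 8 compounds that share arrays and normalisation. UGT1A6 was most like RIC1 (r = 0.997), EXOSC1 (0.989) and SP110 (0.986). UGT2A3 was most like RBM46 (0.994), IFNK (0.982) and EYA2 (0.98). UGT2B4 was most like TGFBR3 (0.977), CEACAM3 (0.971) and SLC44A4 (0.971), and UGT2B7 like CHST14 (0.955), PNLIPRP2 (0.949) and EI24 (0.947). UGT2B10 and UGT2B11 were each among the 3 nearest of the other (0.982), both with TSPYL6 (0.971 for UGT2B10 and 0.986 for UGT2B11), and with PPP2R2C (0.967, UGT2B10) and TMEM50B (0.982, UGT2B11). UGT2B15 was most like GLCE (0.993), TIPARP (0.984) and MLLT11 (0.982). Between members, UGT2B4 correlated with UGT2B10 and UGT2B11 at 0.95 and with UGT2B7 at 0.87.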

How the data were processed

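The arrays held RNA of HepG2 cells after 48 h with a compound (Cy5) and with DMSO (Cy3), 3 arrays per compound. As deposited, the scanner files give spot and local background intensity in both dyes, the percent of saturated pixels and a flag score for each spot, per the file headers. A table of log2 ratios (compound over DMSO) was deposited beside them, by a normalisation not given in the sources used here and centred near 0; 20 of 27 columns could be tied to spots and served as an alternative.

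Intensities were corrected with normexp (offset 50) and normalised by loess within arrays in R 4.3.3 with limma 3.58.1, after reading with Python 3.11.15. Control spots and spots flagged -75 or lower were left out, and spots marked not found (11284 to 24625 per DBA, 3MC or NP array, 287 to 4730 on others) were kept. Probes entered the tests when either dye exceeded local background by more than 2 of its SDs on at least 2 of 3 arrays of any compound. Names came from the files' accessions and symbols through the RefSeq table (26339 of 41000 probes named on the shared platform). The brightest probe stood for its gene. All probes were fitted together, 24 arrays in 1 model and IND alone, with tests against 0 and between compounds adjusted by Benjamini and Hochberg over all probes (and all pairs). Where DMSO was not well above background, the ratio is against the dim channel's own signal. For UGT1A6 with BF it is given as a lower bound for that probe. Levels were scaled by the quantiles of the mean intensity between arrays. The number of arrays limits the precision. On simulated ratios with 100 probes changed 2-fold and 100 changed 4-fold, all were recovered in BaP against DMSO and in IND against DMSO, with 2 and 3 unchanged probes called. The simulated errors had the spread of the fit itself, and the changes were added after normalisation. Recovery was thus near certain and checks the calling step only. It cannot show the effect of the offset, of dim arrays, of the dyes or of differences between cultures.

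Values named are those of all members, of other UGT genes that passed, of up to 4 genes per list with the largest called ratio, and of the 3 genes nearest in pattern; 1 gene that this rule names is not reported here. The members and lists were chosen with earlier results of these data known. Same-numbered arrays of different compounds did not deviate together (mean residual correlation 0.00471, range -0.144 to 0.152), so arrays were not paired. Leaving out BA array 1 throughout was chosen after seeing the data. Promoters are from RefSeq, GRCh38.p14.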

Additional observations from a re-analysis of the deposited data

How the results depend on the processing

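No value of a member against DMSO that passed reversed its direction under any alternative. Some values that had not passed changed sign, such as UGT2B15 with BA (0.06, and -0.05 without BA array 1). The CHR minus BA difference of UGT1A6, 0.32 and not called, was -0.64 and called without BA array 1. In the fits tried, no count of differing pairs moved by over 1.5 times. With a replicate block every count of members stayed as it was (for example 5 lower with BF and 5 with PH). Of 1145 single values, 1081 kept their side of the threshold, 35 passed newly and 29 no longer passed. Of 526 counts, 454 stayed within 1.5 times and 72 did not.

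The member higher with DBA and with 3MC changed from 0 to 1 each with normexp offset 16, plain background subtraction, array weights, each compound fitted alone, or BA array 1 left out, which was chosen after seeing the data. With DBA it was also 1 by median centring and by the authors' log2 ratios, and with 3MC also 1 with spots marked not found left out. Plain subtraction gave 2 higher with BF. Median centring gave BaP 2 higher and 1 lower, and BA 0 lower. For BaP, 1 was lower with array weights, with the authors' log2 ratios and without array 1 or 3 (range 1 to 2). The authors' ratios gave 3 lower with PH and 1 with BA, and BA fitted alone gave 0 higher and 0 lower. BA array 3 could not be tied to the authors' ratios. Their BA count thus rests on BA arrays 1 and 2, so the change of arrays cannot be told apart from the normalisation. At 2-fold, BaP, NP and PH had 1 lower each, BA had 0 lower and CHR 1 higher. With no minimum fold BaP had 3 higher and 4 lower, DBA 2 and 3MC 2 higher, NP 4 and BA 5 lower, and BF 2 higher. The cause was not tested.

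Over all probes, plain subtraction called 7242 with DBA (3129 in the main setting), 6569 with 3MC (3990), 10213 with NP (6753) and 3835 with BA (1749). BA calls were 5471 by median centring, 3372 with array weights, 3819 without array 1 and 0 fitted alone. A 2-fold minimum left 291 (BA) to 7060 (BF), and no minimum 12365 (DBA) to 27146 (BF). Median centring moved the percent of calls that were higher to 65.8 with BaP (51.9 in the main setting), 70.2 with DBA (28.2) and 14.9 with NP (28.8), and the authors' ratios gave 38.3 with DBA. Signal over background limits UGT2B15, UGT1A8 and the DMSO level of UGT1A6.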
